A study of Homo sapiens with 4 samples.

Results

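This account covers 52 genes of DNA replication, taken by symbol from the 58736 features listed for each library. They comprise 9 genes of origin recognition and licensing, 12 of the replicative helicase, 4 kinase and cyclin genes of origin firing, 9 polymerase and primase genes, 12 genes of the sliding clamp, lagging strand and fork, 2 of chromatin assembly and 4 of nucleotide supply. FEN1, the lagging-strand nuclease that the study supplied on a plasmid, was not among them. All 52 symbols matched an Ensembl identifier, and all 52 passed the filter of at least 1 FPKM (reads relative to gene length and to library size) in at least 2 libraries.

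The 4 libraries came from HEK293A cells, an adherent human embryonic kidney line that carries adenovirus early genes. The first group of 2 libraries (replicates 2 and 3) received the DNA probe named NT1_hp2, and the other 2 (replicates 1 and 3) were labelled negative control. Every well, controls included, received 1 µg of FEN1 plasmid and 500 pmol of DNA probes 48 h later, with RNA prepared after 72 h. The study asked how hairpin probes and FEN1 regulate genes. The target of NT1_hp2, the probe of the control wells and the sequence on the plasmid are not stated in the labels, which also do not say that replicates were separate cultures, so p-values measure a spread that may be technical.

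Before DNA synthesis, the origin recognition complex (ORC) with CDC6 and CDT1 loads rings of MCM2 to MCM7 onto DNA, a step called licensing. The kinases CDC7 with DBF4 and CDK2 with cyclin E then recruit CDC45 and the GINS complex, which turn the ring into an active helicase. Polymerases alpha, delta and epsilon copy the strands behind it, the clamp PCNA keeps them on DNA, and ribonucleotide reductase, thymidylate synthase and thymidine kinase supply the building blocks. In dividing cells many of these genes are transcribed at the border of G1 and S phase under E2F factors, and HEK293 lines, whose adenovirus E1A protein binds RB, are known for high levels of E2F targets.

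Recovered depth was 12506203 to 14908687 reads per library, and a replication gene rested on 167 (CCNE2) to 5225 reads (MCM4) in a library. The epithelial keratin genes KRT8, KRT18 and KRT19 and the mesenchymal genes VIM and CDH2 were well above 1 FPKM in all 4 libraries. The kidney genes WT1 and EYA1 were also above 1 FPKM in all 4, at lower levels. The epithelial genes CDH1 and EPCAM and the kidney genes PAX2 and PAX8 were below 1 FPKM in all 4. Of 12 markers of other cell types, 10 were below 1 FPKM in every library, and 4 (PTPRC, CD3E, HBB and UMOD) were at 0 in all. The stromal markers COL1A1 and LUM were above 1 FPKM in all 4 libraries. The summed level of the list was 10.2 and 10.2 FPKM in NT1_hp2 and 10.2 and 10.3 FPKM in the negative control. Most of this sum came from COL1A1. The mitochondrial share of reads was 4.33% and 4.29% in NT1_hp2, against 6.06% and 5.92% in the negative control, and the part of this difference in the results was not tested. FEN1 was at 51.3 and 51.4 FPKM in NT1_hp2, against 73.7 and 64.5 FPKM in the negative control.

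Of the 52 replication genes 5 passed the test, and the median difference of the set was close to 0. The 3 genes that were higher in NT1_hp2 were ATAD5, whose product takes PCNA off DNA, by 1.79-fold, ORC6, the smallest ORC subunit, by 1.63-fold, and WDHD1, which links the helicase to polymerase alpha, by 1.32-fold, a call that was lost once trends with length and GC content were removed. MCM5, a helicase ring subunit, and TYMS, thymidylate synthase, were lower, at 0.710 and 0.695 of the control level. These 3 higher and 2 lower genes are 9.62% of the 52, against 13.9% called among all 16362 tested genes (5.00% higher and 8.92% lower; called by limma-trend where the adjusted p was below 0.05). The median log2 difference of the 52 genes was 0.020, and that of all tested genes was −0.0075. The groups did not overlap for 34 of the 52 genes, 18 higher and 16 lower, a share of 65.4% against 66.8% among all tested genes (32.0% higher and 34.8% lower). An unadjusted p under 0.05 was reached by 23 of the 52, against 37.0% of all tested genes. In bulk RNA, fewer cells in a cell cycle phase and less RNA per cell cannot be told apart.

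**Figure D1:**
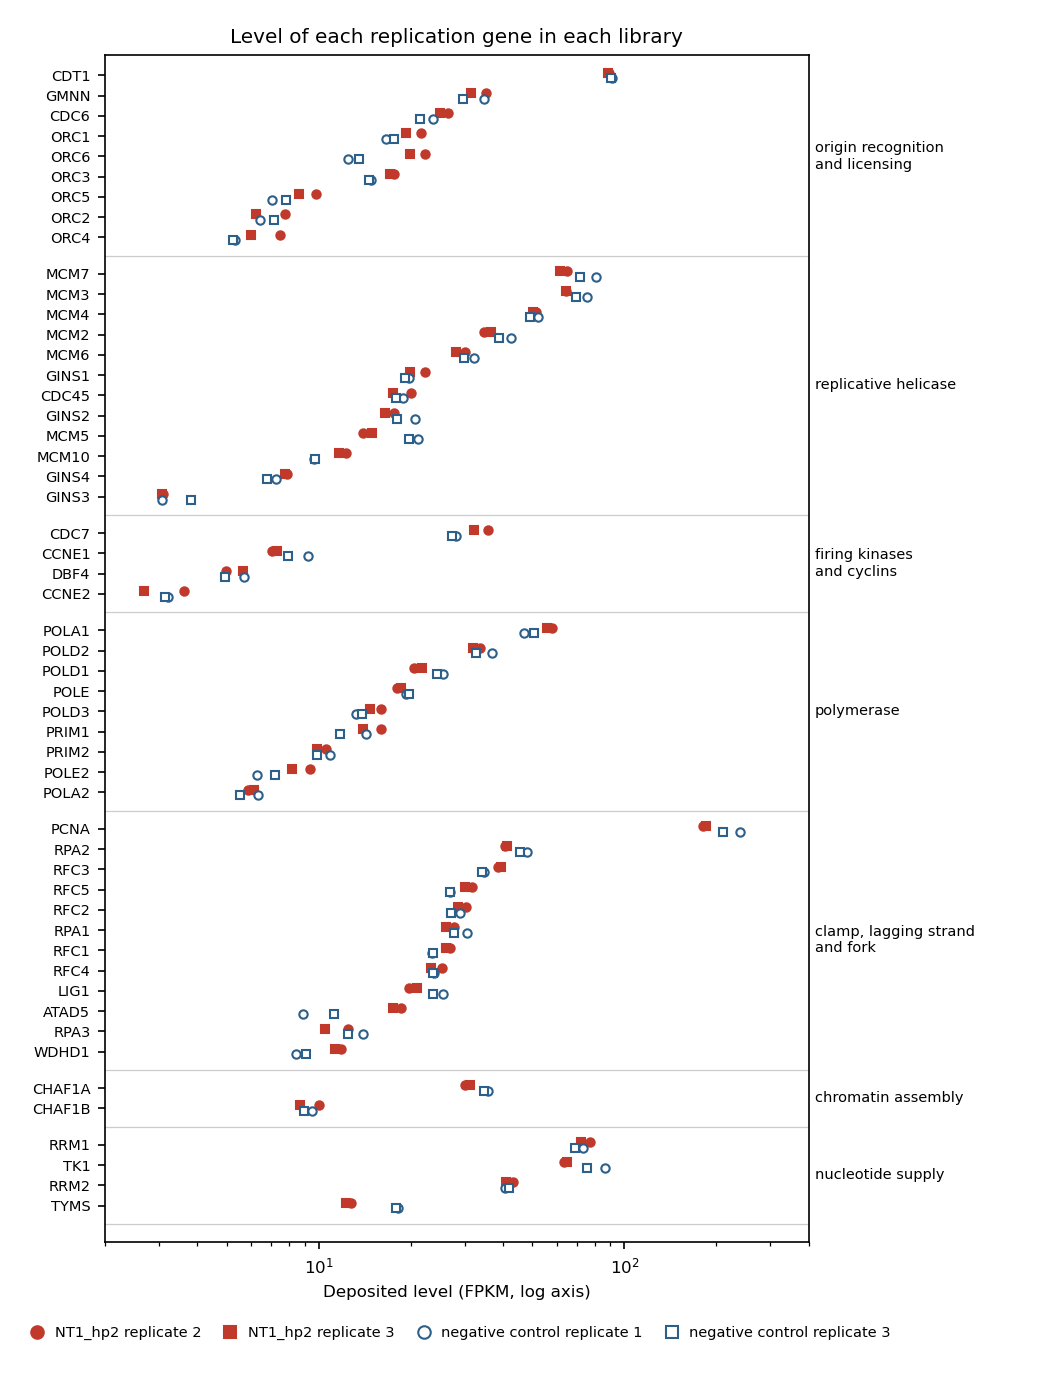
Deposited level (FPKM, log axis) of each of the 52 replication genes, grouped by role, with filled symbols for the 2 NT1_hp2 libraries and open symbols for the 2 negative control libraries. PCNA stands highest and CCNE2 and GINS3 lowest, and ATAD5, ORC6, TYMS and MCM5 show clear gaps between the groups.

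Promoters were inspected because the E2F element is the feature best known to be shared by these genes. A promoter was available for 44 of the 52 genes (RefSeq, GRCh38.p14, 250 bases before to 50 after the start). ATAD5 and MCM5, which passed the test, were among the genes without one. An E2F-type element (TTTGGCGC, TTTCCCGC, TTTCGCGC or TTTGCCGC on either strand, overlapping matches included) was present in 18 of the 44, or 40.9%, against 3.31% of all 35116 promoters and 5.45% of the 10091 promoters of tested genes. The CCAAT box was present in 52.3% of the 44, against 34.6% of all promoters and 36.9% of those of tested genes, and the element TTTGAA in 4.55%, against 15.2% and 9.26%. Stretches of 150 bases before the RefSeq start are shown for MCM6 and MCM7, which hold both elements, and for ORC6 and TYMS, which differed in opposite directions, with E2F-type and CCAAT elements (either strand) in capitals.
MCM6 (chr2:135876444-135876593, minus strand): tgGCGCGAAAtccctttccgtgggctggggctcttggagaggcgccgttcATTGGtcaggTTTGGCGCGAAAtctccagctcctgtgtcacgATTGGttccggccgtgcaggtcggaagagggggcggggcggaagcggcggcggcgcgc
MCM7 (chr7:100101398-100101547, minus strand): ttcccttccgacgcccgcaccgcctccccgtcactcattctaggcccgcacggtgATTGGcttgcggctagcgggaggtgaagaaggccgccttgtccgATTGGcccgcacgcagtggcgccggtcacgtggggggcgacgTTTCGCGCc
ORC6 (chr16:46689509-46689658, plus strand): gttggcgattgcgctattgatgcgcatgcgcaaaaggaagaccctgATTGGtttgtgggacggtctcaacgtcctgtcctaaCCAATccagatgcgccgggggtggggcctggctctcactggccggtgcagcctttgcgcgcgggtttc
TYMS (chr18:657503-657652, plus strand): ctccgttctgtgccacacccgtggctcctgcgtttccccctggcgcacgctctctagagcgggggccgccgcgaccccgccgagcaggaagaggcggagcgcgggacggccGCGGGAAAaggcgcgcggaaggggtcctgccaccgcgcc
In MCM6 the central E2F-type elements overlap in a run on opposite strands that starts 90 bases before the start, and in TYMS the element starts 39 bases before it. In ORC6 the CCAAT boxes start 104 and 68 bases before the start. Of the 18 genes with an E2F-type element 7 had positive and 11 negative differences, with a median log2 difference of −0.087, against 0.043 for the 26 genes without one. These medians are of deposited values, and the contrast was not repeated after removal of length and GC trends.

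Of the licensing genes 8 of 9 had positive differences, with a median log2 difference of 0.22 as deposited and 0.055 after removal of length and GC trends, and ORC6 alone passed as deposited. ORC6 (ENSG00000091651, chromosome 16, 46689643 to 46698394, GRCh38) was at 22.2 and 20.0 FPKM in NT1_hp2, against 12.4 and 13.5 FPKM in the negative control. Every NT1_hp2 value lay above both control values, and the log2 difference was 0.66 (SE 0.083, 95% interval 0.45 to 0.87, limma-trend adjusted p = 0.0340). Relative to the mean level of ORC1 to ORC5, ORC6 stood at 1.73 and 1.74 in NT1_hp2 and at 1.24 and 1.29 in the negative control.

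The 5 larger ORC subunits, which form the ATP-binding ring that encircles DNA, differed by less and none passed as deposited. ORC1 was at 21.5 and 19.3 FPKM in NT1_hp2 and 16.6 and 17.7 FPKM in the negative control, without overlap (log2 difference 0.24, limma-trend adjusted p = 0.103). ORC3, ORC4 and ORC5 were also above both controls in both NT1_hp2 libraries, with log2 differences of 0.22, 0.29 and 0.28, and ORC2 overlapped (0.03). Of all tested genes 32.0% lay above both controls. After removal of length and GC trends ORC2 was at −0.19, ORC3 at 0.030, ORC4 at −0.008 and ORC5 at 0.16, without passing. ORC1 was called higher there (0.25). CDC6, the ATPase that helps ORC load the ring, was at 26.5 and 24.9 FPKM in NT1_hp2 and 23.6 and 21.5 FPKM in the negative control (0.18, adjusted p = 0.157 by limma-trend).

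CDT1, the loading factor, and GMNN, which encodes its inhibitor geminin, were near their control levels. CDT1 was at 88.8 and 88.3 FPKM in NT1_hp2 and 91.1 and 90.4 FPKM in the negative control, below both controls by a small margin, with a 95% interval of −0.20 to 0.13 on the log2 scale. GMNN was at 35.1 and 31.6 FPKM in NT1_hp2 and 34.7 and 29.6 FPKM in the negative control (interval −0.21 to 0.32). The direction of CDT1 depended on the processing, with log2 differences of 0.042 under library totals, 0.036 under upper-quartile factors and 0.22 after removal of length and GC trends, where it was called higher. The ratio of CDT1 to GMNN was 2.53 and 2.80 in NT1_hp2 and 2.62 and 3.05 in the negative control, so the ranges overlapped.

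Among MCM2 to MCM7, 5 of 6 had negative differences and 4 of 6 lay below both controls in both NT1_hp2 libraries, against 34.8% of all tested genes. The summed level of the 6 genes was 259 and 256 FPKM in NT1_hp2, against 304 and 279 FPKM in the negative control. The sum of all tested genes was also lower, at 250565 and 248467 FPKM in NT1_hp2, against 300282 and 279567 FPKM in the negative control. MCM5 (ENSG00000100297, chromosome 22, 35400063 to 35425430), whose product closes the gate of the ring with MCM2, was at 14.0 and 15.0 FPKM in NT1_hp2, against 21.1 and 19.7 FPKM in the negative control. It was the lowest of the 6 genes in level and the only one to pass (log2 difference −0.47, SE 0.072, 95% interval −0.65 to −0.28, limma-trend adjusted p = 0.0340). Its level relative to the mean of the other ring genes was 0.285 and 0.311 in NT1_hp2, against 0.373 and 0.381 in the negative control.

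The remaining ring genes did not pass as deposited. MCM7 was at 64.7 and 61.8 FPKM in NT1_hp2 and 80.7 and 71.7 FPKM in the negative control (log2 difference −0.26, limma-trend adjusted p = 0.0958), MCM2 at 34.7 and 36.7 against 42.6 and 39.0 FPKM (−0.19), and MCM3 at 64.2 and 64.2 against 75.5 and 69.5 FPKM (−0.17). These 3 genes were below both controls, while MCM6 (−0.09) and MCM4 (0.0044) overlapped between groups. MCM4 was at 51.3 and 50.1 FPKM in NT1_hp2 and 52.0 and 49.1 FPKM in the negative control. After removal of length and GC trends MCM2 was at −0.02, MCM3 at −0.14, MCM4 at −0.05 and MCM7 at −0.09, without passing. MCM6 was called lower there (−0.24), and MCM5 still passed (−0.34).

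The helicase activators stayed closer to their control levels. CDC45 was at 20.1 and 17.5 FPKM in NT1_hp2 and 18.8 and 17.8 FPKM in the negative control, and the summed level of GINS1 to GINS4 was 50.9 and 47.2 FPKM in NT1_hp2 and 50.8 and 47.8 FPKM in the negative control. Within GINS the log2 differences ran from −0.17 (GINS2) to 0.14 (GINS4). MCM10, an origin firing factor outside the ring, had the largest positive difference of the role, at 12.3 and 11.6 FPKM in NT1_hp2 and 9.65 and 9.72 FPKM in the negative control (log2 difference 0.28, limma-trend adjusted p = 0.0535), just outside the threshold.

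Among the firing genes, the kinase gene CDC7 was above both controls, at 35.7 and 32.2 FPKM in NT1_hp2 and 28.2 and 27.4 FPKM in the negative control, without passing (0.28, adjusted p = 0.0676 by limma-trend). Its activating subunit gene DBF4 overlapped, at 4.96 and 5.66 FPKM in NT1_hp2 and 5.70 and 4.93 FPKM in the negative control. The cyclin E genes did not pass: CCNE1 was at 7.03 and 7.29 FPKM in NT1_hp2 and 9.21 and 7.96 FPKM in the negative control (−0.23), and CCNE2 overlapped (−0.02). CCNE2 shares 37.0% of its exon bases with INTS8 on the opposite strand, and the library kit does not mark strand.

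**Figure D2:**
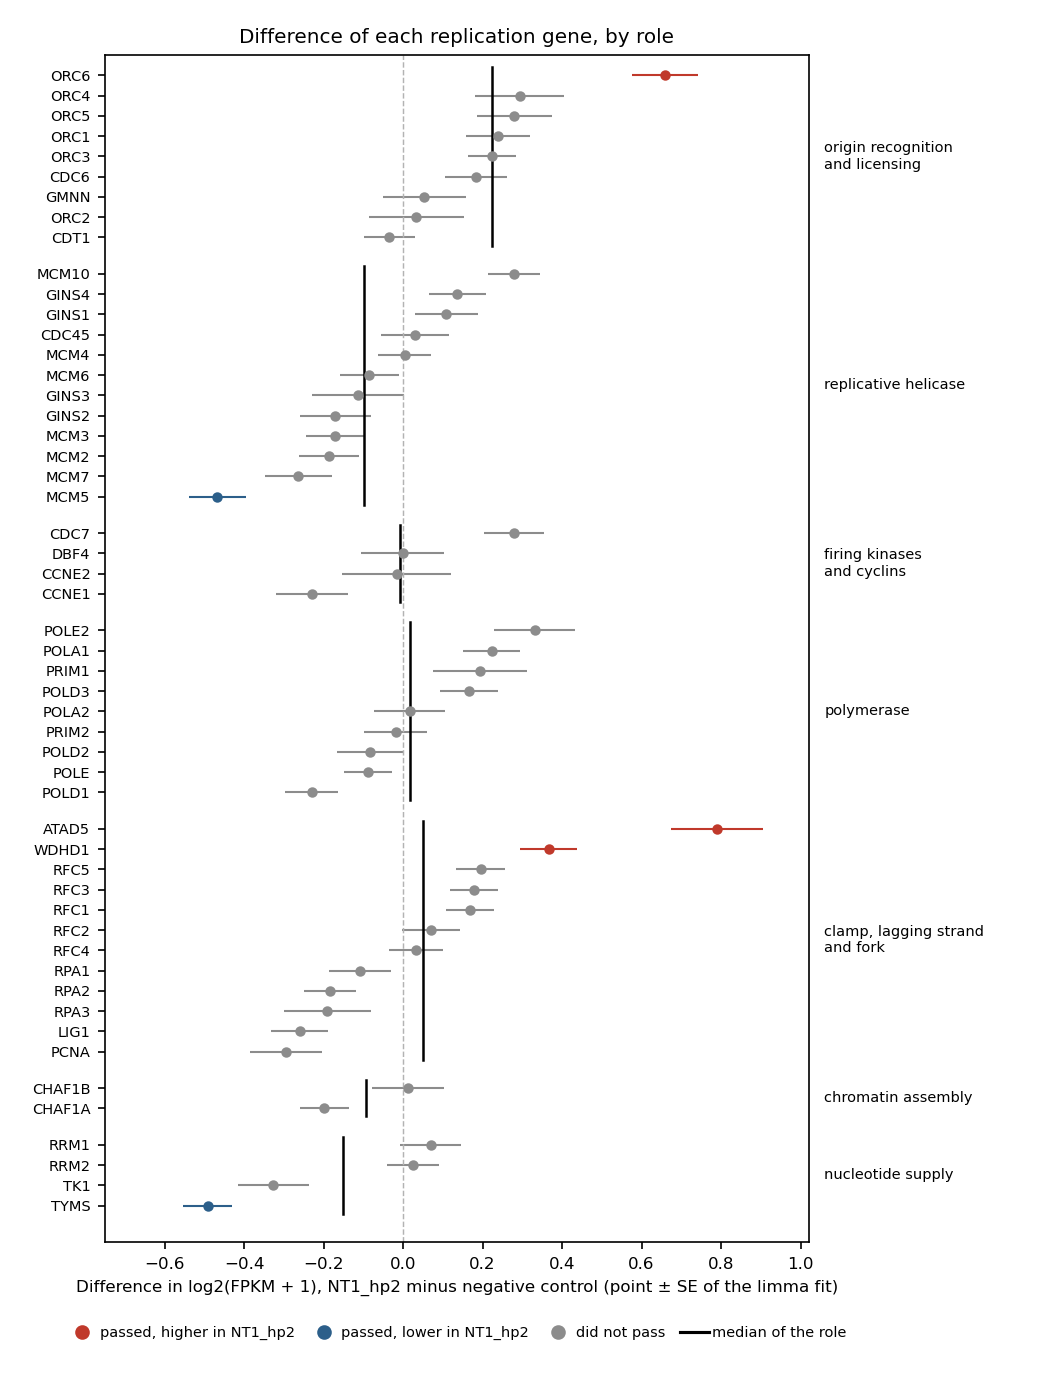
Difference in log2(FPKM + 1), NT1_hp2 minus negative control, with the SE of the limma fit, for each replication gene, with the median of each role as a vertical line. The licensing genes lie mostly to the right (median 0.22) and the ring genes MCM2 to MCM7 to the left, and the 5 coloured genes passed the test.

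No polymerase or primase gene passed (0 of 9 by limma-trend and 0 with library totals, although 3 of the 9 had an unadjusted p under 0.05 and 3 passed by limma-voom), and the median log2 difference of the role was 0.016. Polymerase alpha-primase starts each Okazaki fragment, and its catalytic subunit gene POLA1 was at 58.0 and 56.0 FPKM in NT1_hp2 and 46.9 and 50.5 FPKM in the negative control (0.22, limma-trend adjusted p = 0.0937). The genes for its other subunits, POLA2 (0.02), PRIM1 (0.19) and PRIM2 (−0.02), overlapped between groups. POLA2 shares 35.1% and PRIM1 14.9% of its exon bases with another annotated gene on its own strand, so both levels are uncertain.

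The catalytic subunit genes of the elongating polymerases lay below both controls without passing, and POLE2 lay above them. POLD1, catalytic subunit of the lagging-strand polymerase delta, was at 20.6 and 21.8 FPKM in NT1_hp2 and 25.6 and 24.4 FPKM in the negative control (−0.23, limma-trend adjusted p = 0.0771). POLE, catalytic subunit of the leading-strand polymerase epsilon, was at 18.1 and 18.5 FPKM in NT1_hp2 and 19.3 and 19.8 FPKM in the negative control (−0.09). POLE2, an accessory subunit of polymerase epsilon, had the largest positive difference of the role, at 9.35 and 8.18 FPKM in NT1_hp2 and 6.30 and 7.22 FPKM in the negative control (0.33, limma-trend adjusted p = 0.0858). The accessory subunit genes of polymerase delta differed in direction, with POLD3 above both controls (0.17) and POLD2 overlapping (−0.08).

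The clamp and its loaders held the largest change of the set. ATAD5 (ENSG00000176208, chromosome 17, 30831970 to 30895869) was at 18.5 and 17.6 FPKM in NT1_hp2, against 8.91 and 11.3 FPKM in the negative control. All NT1_hp2 values lay well above the controls, the gap between the 2 controls was wider than that between the 2 NT1_hp2 libraries, and the log2 difference was 0.79 (SE 0.12, 95% interval 0.49 to 1.09, limma-trend adjusted p = 0.0340). PCNA itself, the most abundant of the 52 genes, was at 181 and 184 FPKM in NT1_hp2 and 238 and 211 FPKM in the negative control, without passing (−0.29, limma-trend adjusted p = 0.0856).

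ATAD5 forms a clamp unloader with RFC2 to RFC5, the same small subunits that RFC1 uses for loading. RFC1 was at 26.9 and 26.1 FPKM in NT1_hp2 and 23.4 and 23.6 FPKM in the negative control (0.17, adjusted p = 0.114 by limma-trend). All 5 RFC genes had positive differences as deposited, from 0.03 (RFC4) to 0.20 (RFC5), and 0 of the 5 passed by limma-trend. Of the 5, 3 lay above both controls, against 32.0% of all tested genes. After removal of length and GC trends RFC1 was at −0.04, RFC3 at −0.02 and RFC4 at 0.0057. RFC2 (0.20, called higher) and RFC5 (0.17) stayed positive there. The ratio of ATAD5 to RFC1 was 0.689 and 0.672 in NT1_hp2, against 0.381 and 0.477 in the negative control.

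CHTF18 and CHTF8, subunits of a further clamp loader with the same small subunits, were lower in NT1_hp2. CHTF18 was at 19.8 and 21.5 FPKM in NT1_hp2, against 30.2 and 26.4 FPKM in the negative control (−0.43, limma-trend adjusted p = 0.0441), and CHTF8 at 8.98 and 9.37 against 18.1 and 15.8 FPKM (−0.81). Their partner gene DSCC1 was at 15.3 and 14.0 FPKM in NT1_hp2 and 11.6 and 12.8 FPKM in the negative control, without passing (0.25). The ratio of ATAD5 to CHTF18 in deposited levels was 0.935 and 0.819 in NT1_hp2, against 0.295 and 0.426 in the negative control. The 2 transcripts are far apart in GC content, at 37.4% for ATAD5 and 66.9% for CHTF18. After removal of length and GC trends ATAD5 was at 0.48 and CHTF18 at −0.17, and CHTF18 did not pass.

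Genes for single-stranded DNA binding and fragment joining were below control without passing. The 3 RPA genes, whose protein coats single-stranded DNA, had log2 differences of −0.11 (RPA1), −0.18 (RPA2) and −0.19 (RPA3, with overlap). LIG1, the ligase that seals Okazaki fragments, was at 19.8 and 21.0 FPKM in NT1_hp2 and 25.6 and 23.7 FPKM in the negative control (−0.26, limma-trend adjusted p = 0.0709). WDHD1 (ENSG00000198554, chromosome 14, 54938950 to 55027105) passed, at 11.8 and 11.3 FPKM in NT1_hp2, against 8.42 and 9.08 FPKM in the negative control (0.37, SE 0.072, limma-trend adjusted p = 0.0421), a call lost after removal of length and GC trends (0.08, adjusted p = 0.428). Both subunit genes of the chromatin assembly factor, which deposits histones behind the fork, failed to pass: CHAF1A was below both controls (−0.20) and CHAF1B overlapped (0.01).

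Of the 4 nucleotide supply genes TYMS alone passed, and it was lower in NT1_hp2. TYMS (ENSG00000176890, chromosome 18, 657604 to 673578), which makes dTMP from dUMP, was at 12.8 and 12.3 FPKM in NT1_hp2, against 18.2 and 17.9 FPKM in the negative control. The groups were far apart compared with the spread within either, with a log2 difference of −0.49 (SE 0.062, 95% interval −0.65 to −0.33, limma-trend adjusted p = 0.0340). Of its exon bases 39.1% overlap ENOSF1 on the opposite strand, and ENOSF1 was higher in NT1_hp2 in level, at 7.96 and 7.63 FPKM, against 5.97 and 6.50 FPKM in the negative control. TK1, the salvage enzyme for thymidine, was at 63.5 and 64.6 FPKM in NT1_hp2 and 86.4 and 75.2 FPKM in the negative control, without passing (−0.33, limma-trend adjusted p = 0.0693). After removal of length and GC trends TYMS still passed (−0.44), while TK1 was at −0.04, RRM1 at −0.07 and RRM2 at −0.13, without passing.

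Ribonucleotide reductase, which turns ribonucleotides into deoxyribonucleotides, overlapped between the groups. RRM1, the large subunit, was at 77.3 and 71.9 FPKM in NT1_hp2 and 73.3 and 68.7 FPKM in the negative control (95% interval −0.13 to 0.27 on the log2 scale). RRM2, the small subunit, was at 43.1 and 41.0 FPKM in NT1_hp2 and 40.6 and 42.0 FPKM in the negative control (−0.14 to 0.19). RRM2 shares 20.2% of its exon bases with another annotated gene on its own strand, so its level is uncertain. The ratio of TYMS to RRM1 was 0.165 and 0.171 in NT1_hp2, against 0.248 and 0.260 in the negative control.

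The order of the differences followed the base composition of the transcripts. Across the 52 genes, Pearson's r between the GC content of the principal transcript and the log2 difference was −0.60 (Spearman's rho −0.65), and across all 12148 tested genes with a principal transcript it was −0.62 (rho −0.65); genes share libraries and are not replicates. Among genes with a GC content of up to 44.4% the median log2 difference was 0.17 for the 21 replication genes and 0.17 for all genes. Among genes at 54.8% and above it was −0.21 for the 10 replication genes and −0.27 for all genes. Licensing genes had a median GC content of 43.6%, ATAD5 and WDHD1 37.4% and 38.1%, MCM5 56.6%, MCM7 58.1% and TK1 61.6%, while TYMS and ORC6 lay between these bounds at 49.8% and 46.1%.

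**Figure D3:**
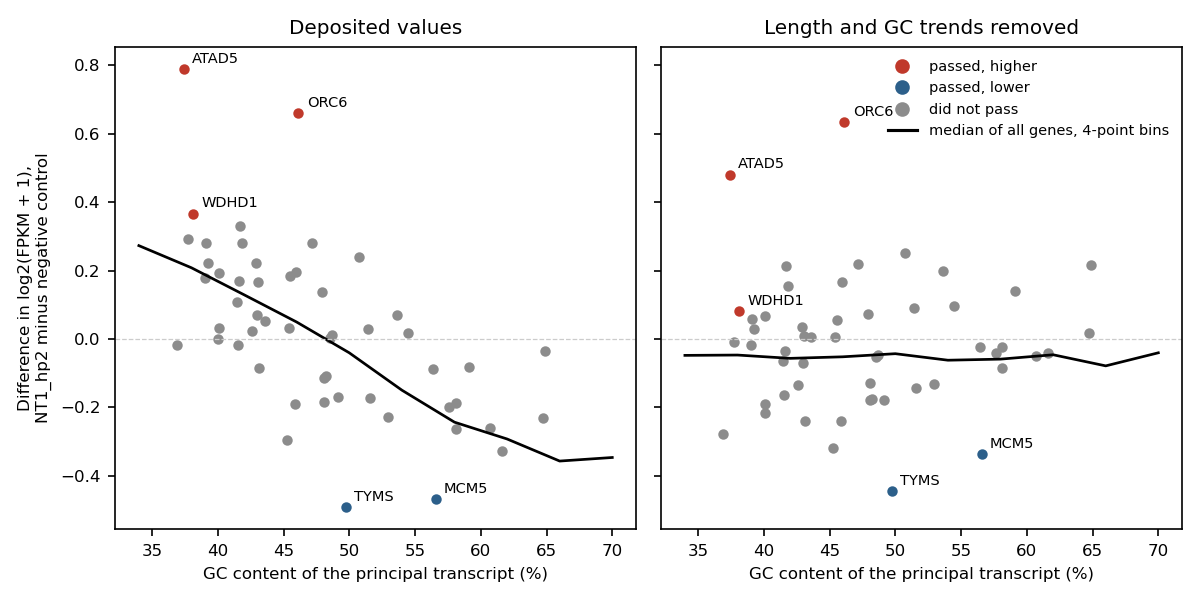
Difference in log2(FPKM + 1), NT1_hp2 minus negative control, against the GC content of the principal transcript (%) for the 52 replication genes, from the deposited values (left) and after removal of per-library trends with length and GC content (right). The line is the median of all genes in bins of 4 percentage points, colours mark genes that passed in the deposited values, and ORC6, ATAD5, MCM5 and TYMS lie off the line in both panels while WDHD1 lies near it on the right.

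With smooth trends of length and GC content removed from each library, 6 replication genes were called higher and 4 lower, against 6.34% and 16.1% of the 12148 genes tested. ORC6 (log2 difference 0.63, limma-trend adjusted p = 0.000673), ATAD5 (0.48, 0.00270), MCM5 (−0.34, 0.00642) and TYMS (−0.44, 0.00164) still passed, and WDHD1 did not (0.08, 0.428). ORC1 (0.25), MCM10 (0.22), RFC2 (0.20) and CDT1 (0.22) were called higher there, and PCNA (−0.32) and MCM6 (−0.24) lower. MCM7, TK1 and LIG1 were then at −0.09, −0.04 and −0.05. The licensing median was 0.055 after the correction, against 0.22 before it. The corrected median of all genes was itself negative, from −0.078 to −0.040 across bins of GC content, so corrected medians are to be read beside it.

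Median-of-ratios factors, a pseudocount of 0.1 and a fit with no robust shrinkage each called 3 replication genes higher and 2 lower. The shares called higher and lower among all tested genes were 4.60% and 8.18% with those factors, 5.18% and 9.57% (14.8% in either direction) with that pseudocount, and 4.22% and 7.68% with no robust shrinkage. Requiring 1 FPKM in all 4 libraries called 5 and 4, against 9.87% and 16.3%, and the correction with summed exon lengths 6 and 3, against 6.32% and 15.7%. Scaling moved the split of directions. With library totals 9 replication genes were called higher and 2 lower, against 9.34% and 8.09% of all tested genes, and with upper-quartile factors 8 and 2, against 9.05% and 8.71%. When protein-coding genes alone were tested, 11 were called higher and 7 lower, against 14.6% and 24.2% of 12149 genes, and limma-voom on recovered reads called 11 and 9, against 14.4% and 19.9%. Without any 1 of the 4 libraries 0 of the 52 passed by limma-trend, while 5 to 23 had an unadjusted p under 0.05, and at most 1 of all tested genes passed in those fits. In them ORC6 ranged from 0.59 to 0.73, ATAD5 from 0.64 to 0.94, WDHD1 from 0.32 to 0.41, MCM5 from −0.51 to −0.42 and TYMS from −0.52 to −0.46.

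**Figure D4:**
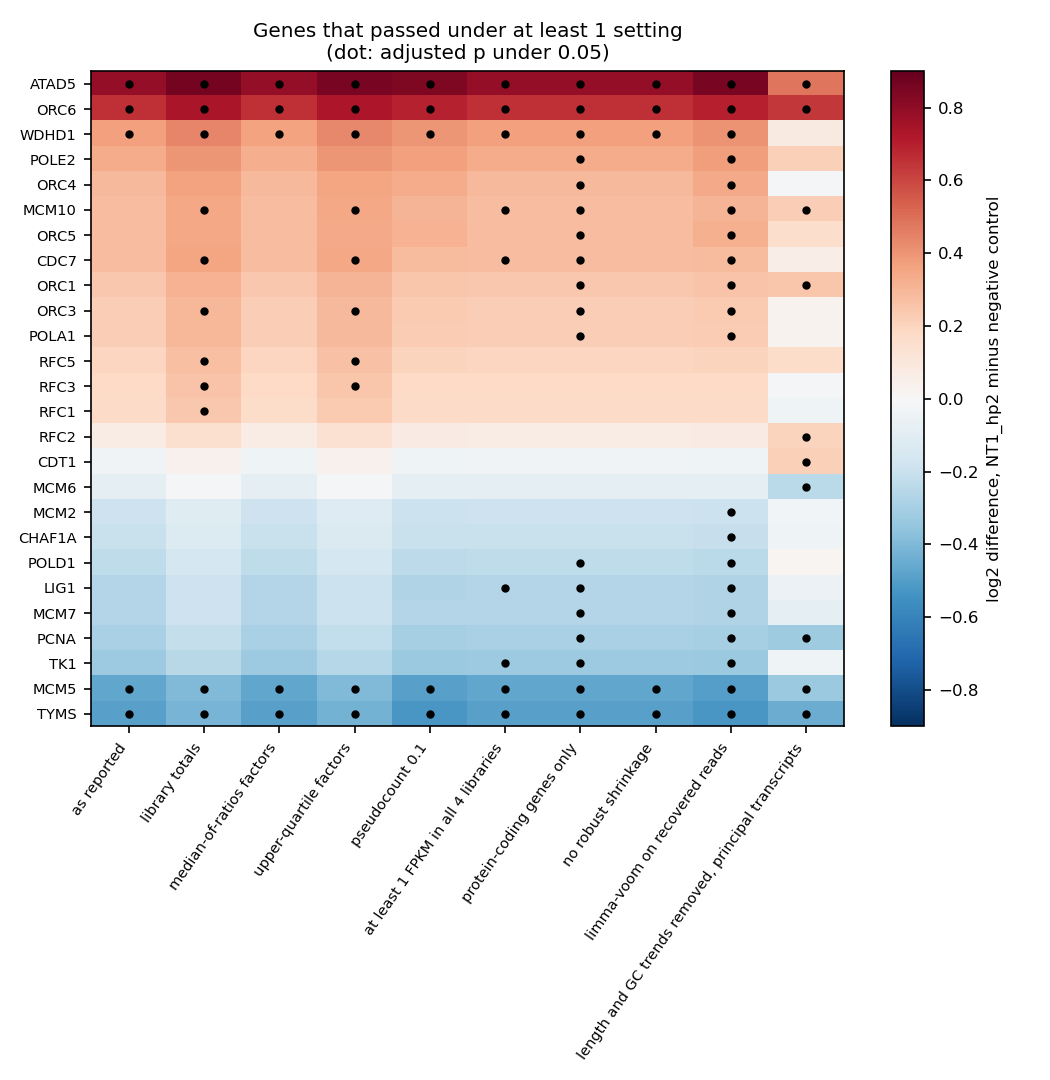
Log2 difference, NT1_hp2 minus negative control, of the 26 replication genes that passed under at least 1 of 10 settings, with a dot where the adjusted p was under 0.05; the fit with no filter and the fits without a library are not drawn. ORC6, ATAD5, MCM5 and TYMS passed under all 10, and 5 genes changed sign under at least 1 of them.

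Of 36 tested genes in a list of other origin and fork genes, 2 were higher and 4 lower, with a median log2 difference of −0.0038. Among all tested genes 5.00% were called higher and 8.92% lower. DTL, which directs the degradation of CDT1 in S phase, was at 22.7 and 20.6 FPKM in NT1_hp2, against 16.9 and 16.0 FPKM in the negative control (0.37, limma-trend adjusted p = 0.0435), and MCM8, a helicase of recombination, was also higher (0.38). CDK2, the kinase partner of cyclin E, was at 19.4 and 21.3 FPKM in NT1_hp2, against 28.8 and 26.5 FPKM in the negative control (−0.42, limma-trend adjusted p = 0.0408). RECQL4, a helicase with a role in origin firing, was lower as well (−0.45), as were CHTF18 and CHTF8. After the length and GC correction CDK2 (−0.43), CHTF8 (−0.69) and RECQL4 (−0.20) passed, and CHTF18 (−0.17), DTL (0.18) and MCM8 (0.15) did not. In all, 9 of the 36 were then called lower and 0 higher, with TOP2A, SUPT16H, ASF1A, RBBP4, DDB1 and UHRF1 joining those 3 and a median of −0.10, against 16.1% lower and 6.34% higher among all genes tested there.

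Of 22 tested genes in other steps of nucleotide synthesis, 1 was lower and 0 were higher by limma-trend (10 had an unadjusted p under 0.05), with a median of −0.094. The shares called among all tested genes were 8.92% lower and 5.00% higher. The gene that passed was IMPDH1, an enzyme of guanine nucleotide synthesis, at 10.3 and 10.1 FPKM in NT1_hp2, against 15.7 and 13.5 FPKM in the negative control (−0.47, limma-trend adjusted p = 0.0416; after the correction −0.22, adjusted p = 0.0621). DUT, which removes dUTP and feeds dUMP to thymidylate synthase, was at 14.6 and 13.2 FPKM in NT1_hp2 and 18.2 and 16.0 FPKM in the negative control, without passing (−0.28). After the length and GC correction 5 of the 22 were called lower and 0 higher (DUT at −0.37, TK2, SHMT1, PAICS and IMPDH2), against 16.1% and 6.34% of all genes tested there.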

How the data were processed

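RNA of HEK293A cells was sequenced in 4 libraries, 2 labelled with the probe NT1_hp2 and 2 as negative control, with groups and replicate numbers from the sample titles. The authors deposited 1 value for each of 58736 features per library, taken as FPKM because the file headers name no unit. Per the submitters' processing notes the build was GRCh38.p12, while the software for alignment, counting and scaling is not given in the sources used here. Multiplying each value by the gene's summed exon length (GENCODE 29) gave whole reads, within 0.01, for 100% of the values above 0, so the reads could be recovered. These reads came to 12506203 to 14908687 per library over annotated genes, and the library sizes that the scaling implies were 0.966 to 1.04 times these totals. Counts of the NT1_hp2 replicates gave a chi-square of 2.69 per degree of freedom and those of the controls 5.68 (genes with at least 10 reads over the pair), so replicates differed by more than sampling noise and each library counted once.

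Genes reaching 1 FPKM in 2 or more libraries were compared as log2(FPKM + 1) with limma 3.58.1 in R 4.3.3 (intensity trend, robust shrinkage), with Benjamini-Hochberg adjustment across the 16362 genes that passed this filter, and calls were made below 0.05. The log2(FPKM + 1) scale understates changes of low genes. Standard errors and 95% intervals come from the same fit. The fit was tested on simulated counts with a fixed spread for all genes and no trend with length or GC content. That test therefore does not cover such trends. Smooth per-library trends with length and GC content were removed with mgcv 1.9.3 as an alternative, using the longest APPRIS principal transcript of each gene. Other alternatives were 3 scalings, a pseudocount of 0.1, other filters, protein-coding genes only, limma without robust shrinkage, limma-voom on recovered reads and omission of each library. A correction with summed exon lengths, and a fit to the same genes with no correction, were added after seeing the data. The members, the gene lists, the motifs and the rule for named genes were chosen with earlier results of these data known. That rule takes every called member, the largest difference in each direction in each role, the MCM2 to MCM7 and nucleotide supply genes, FEN1, and up to 8 called genes of each other list by smallest p. Further genes named with a complex or pathway were chosen after their values were seen. Promoters are RefSeq sequences of GRCh38.p14, matched by symbol, and are used with their own coordinates. The intervals of the fit rest on the spread between libraries, and the floor of 3 reads covers counting error only.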

Additional observations from a re-analysis of the deposited data

How the results depend on the processing

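No paired analysis was possible because the groups share only replicate number 3. Median-of-ratios factors, a pseudocount of 0.1 and omission of robust shrinkage each gave the reported 3 higher and 2 lower replication genes. Library totals gave 9 higher among replication genes and 1532 higher among all genes, and upper-quartile factors 8 and 1484, with medians of 0.091 and 0.086 for the replication genes and 0.054 and 0.049 for all tested genes, so that 53.6% and 51.0% of all calls were higher, against 35.9% as deposited. At least 1 FPKM in all 4 libraries gave 5 higher and 4 lower (1374 and 2273 of all genes), protein-coding genes alone 11 and 7 (1778 and 2938), genes with a principal transcript but no correction 11 and 7 (1777 and 2940), and limma-voom 11 and 9 (2361 and 3256). With no filter 0 and 0 replication genes passed by limma-trend (131 and 0 of all genes), in a table in which most features are at or near 0, and 15 had an unadjusted p under 0.05. Removal of length and GC trends gave 6 and 4 replication genes (1961 lower among all genes) with principal transcripts and 6 and 3 (1904) with summed exon lengths. CDT1 was called higher at 0.22 and 0.26 in these fits, against −0.03 as deposited. Leaving out 1 library gave 0 to 0 replication genes higher and 0 to 0 lower, 0 to 0 of all genes higher and 0 to 1 lower, with a median of −0.023 to 0.097 for the replication genes; 39 of the 52 genes kept their sign in all 4 fits and 13 did not. Those fits set a lone library against 2, assuming that it varies like the other group, so the loss of calls does not single out any gene. Depth limits the lowest members most: 3 reads amount to 0.208 to 0.239 FPKM for a transcript of 1 kilobase.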

Other observations

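Of the 13 genes of the E2F family and its pocket-protein partners, 7 lay above both controls in both NT1_hp2 libraries and 3 below. Among all tested genes 32.0% lay above both controls and 34.8% below them. The median log2 difference of the list was 0.090. E2F1, an activator of replication genes, was at 40.5 and 42.1 FPKM in NT1_hp2 and 40.7 and 36.8 FPKM in the negative control, with overlap, and E2F4, a repressor in resting cells, was at 12.5 and 12.7 FPKM in NT1_hp2 and 17.9 and 14.7 FPKM in the negative control, without passing (log2 difference −0.34, limma-trend adjusted p = 0.0870). RB1, which encodes the retinoblastoma protein, was at 21.4 and 20.0 FPKM in NT1_hp2, against 16.1 and 15.7 FPKM in the negative control (0.36, limma-trend adjusted p = 0.0393), and RBL1, its relative p107, was at 13.7 and 12.7 FPKM in NT1_hp2, against 9.30 and 10.4 FPKM in the negative control (0.39, limma-trend adjusted p = 0.0449). After removal of length and GC trends RB1 was at 0.08 and RBL1 at 0.14, and neither passed, whereas E2F1 was called higher (0.35, limma-trend adjusted p = 0.00461). Of the 13 genes of this list 2 were called higher and 0 lower by limma-trend, where 1 had a negative difference with an unadjusted p under 0.05, and after the correction 1 was called higher (E2F1) and 0 lower. Among all tested genes 5.00% were called higher as deposited and 6.34% after the correction.

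Markers of G2 and mitosis stood lower than the replication genes in median. Of 18 tested, 4 were lower, against 8.92% of all tested genes, and 0 were higher by limma-trend (1 had a positive difference with an unadjusted p under 0.05), and the median log2 difference was −0.21, against 0.020 for the 52 replication genes. KIF20A, a kinesin of cell division, was at 13.6 and 13.6 FPKM in NT1_hp2, against 22.0 and 21.2 FPKM in the negative control (−0.63), and CDC20, an activator of the anaphase-promoting complex, was at 36.2 and 39.6 FPKM in NT1_hp2, against 62.4 and 54.6 FPKM in the negative control (−0.61). PLK1 (−0.55) and AURKA (−0.29), kinases of mitotic entry and spindle poles, also passed. After the length and GC correction 10 of the 18 were lower, against 16.1% of all genes tested there, and 0 were higher, with a median of −0.29. The part of the cell cycle in the results for replication genes was not tested.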
